A study of Mus musculus with 56 samples.

Results

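The 28 RNA-seq libraries of the 21-month-old mice, out of 56 libraries in the series, were used to describe what sets each region of the aged male reproductive tract apart from the rest of the tract. They were chosen by the age in their labels and cover 7 regions with 4 libraries each, namely the testis, the efferent ductules, the vas deferens, and the epididymis in 4 pieces called the initial segment, the caput, the corpus and the cauda. All mice were males of the C57BL/6 strain, and the labels give no treatment. Each region was compared with the mean of the other 6 regions. The 28 libraries of the same 7 regions in 3-month-old mice were computed alike and serve as the comparison. The study dissected all regions of a mouse together and pooled the left and right organs, from 4 mice per age. The labels do not say that a replicate number marks the mouse.

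Sperm are made in the seminiferous tubules of the testis and leave it through the efferent ductules, whose epithelium takes up most of the fluid and carries motile cilia. They then mature along the epididymal duct, where the epithelium of each segment secretes its own set of lipocalins, beta-defensins, protease inhibitors and enzymes into the lumen. The cauda stores sperm, and the vas deferens, a muscular tube, carries them onward at ejaculation. In bulk RNA a lower level can come from fewer cells of a type or from less RNA per cell, and these cannot be told apart.

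Between 11125279 and 20561967 reads were counted on genes per 21-month library (median 16402233.5), and between 13109573 and 19523867 per 3-month library. Some libraries stood apart from the others of their group, and 6 of them were left out together as a check: replicates 2 and 3 of the 21-month efferent ductules, replicate 2 of the 21-month cauda, replicate 4 of the 21-month vas deferens, replicate 2 of the 3-month caput and replicate 3 of the 3-month cauda. Gm42418, which overlaps ribosomal RNA sequence, took 4.93 to 22.2% of the counts in the 21-month efferent ductules against 1.27 to 3.29% at 3 months, and 17.0 to 36.0% in the 21-month corpus against 10.4 to 26.3%. Its highest share was 49.7%, in replicate 2 of the 3-month caput, where mitochondrial genes took 11.6%, against 6.54 to 9.49% and 0.863 to 2.91% in the other 3 young caput libraries. Without it, non-coding genes took 12.03 to 19.6% of the counts in the 21-month efferent ductules and 9.82 to 10.7% at 3 months. The check keeps replicates 1 and 4 of the 21-month efferent ductules. Their Gm42418 shares were 22.2 and 18.5%, against 4.93 and 14.9% in replicates 2 and 3. Their non-coding shares were 19.0 and 19.6%, against 12.03 and 15.2%. Their depth was lower, at 11442133 and 11125279 counts against 15665064 and 16121722. Values without the 6 libraries, a check chosen after seeing the data, are given beside results that they moved, and the part of the other differences was not tested.

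A gene was called region-specific when its mean CPM (counts scaled by the library size) in the region reached 4 times the average over the other 6 regional means, and edgeR's quasi-likelihood test gave an unadjusted p under 0.05. Of 34552 genes tested at 21 months, the testis had 9905 region-specific genes (28.7% of genes tested) and the efferent ductules 1767 (5.11%). The vas deferens had 1341 (3.88%). Along the epididymis there were 1327 for the initial segment (3.84%), 593 for the caput (1.72%), 992 for the corpus (2.87%) and 756 for the cauda (2.19%). At 3 months, with 34475 genes tested, the numbers were 9912 (28.8%) for testis, 1954 (5.67%) for efferent ductules, 998 (2.89%) for vas deferens, 865 (2.51%) for initial segment, 1082 (3.14%) for caput, 932 (2.7%) for corpus and 807 (2.34%) for cauda. Over all genes the initial segment list was longer at 21 months and the caput list shorter. Over protein-coding genes the initial segment list was shorter at 21 months (422 genes against 454) and the caput lists were nearly equal (306 and 311), while over all genes the lists of the testis and corpus had nearly the same length. Only 244 genes were called in more than 1 region at 21 months.

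The regional lists of the 2 ages overlapped most in the testis, where 9098 genes were called at both ages, 91.9% of the 21-month list and 91.8% of the 3-month list. The shared genes made up 77.2% and 69.8% of the respective lists for the efferent ductules and 51.3% and 68.9% for the vas deferens. Along the epididymis they made up 47.6% and 72.9% (initial segment), 65.3% and 35.8% (caput), 67.5% and 71.9% (corpus) and 52.2% and 48.9% (cauda). Among protein-coding genes alone the overlap was 79.6% and 74.0% in the initial segment and 73.2% and 72.0% in the caput. It stayed lower in the cauda, at 60.9% and 45.5%, and in the vas deferens it was 60.6% of the 21-month and 80.5% of the 3-month genes. Protein-coding genes made up 12.4% of the 696 genes called in the initial segment only at 21 months and 12.5% of the 695 called in the caput only at 3 months, and these sets are described after the regions. They made up 50.4% of the 234 initial segment genes called only at 3 months and 39.8% of the 206 caput genes called only at 21 months.

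**Figure D1:**
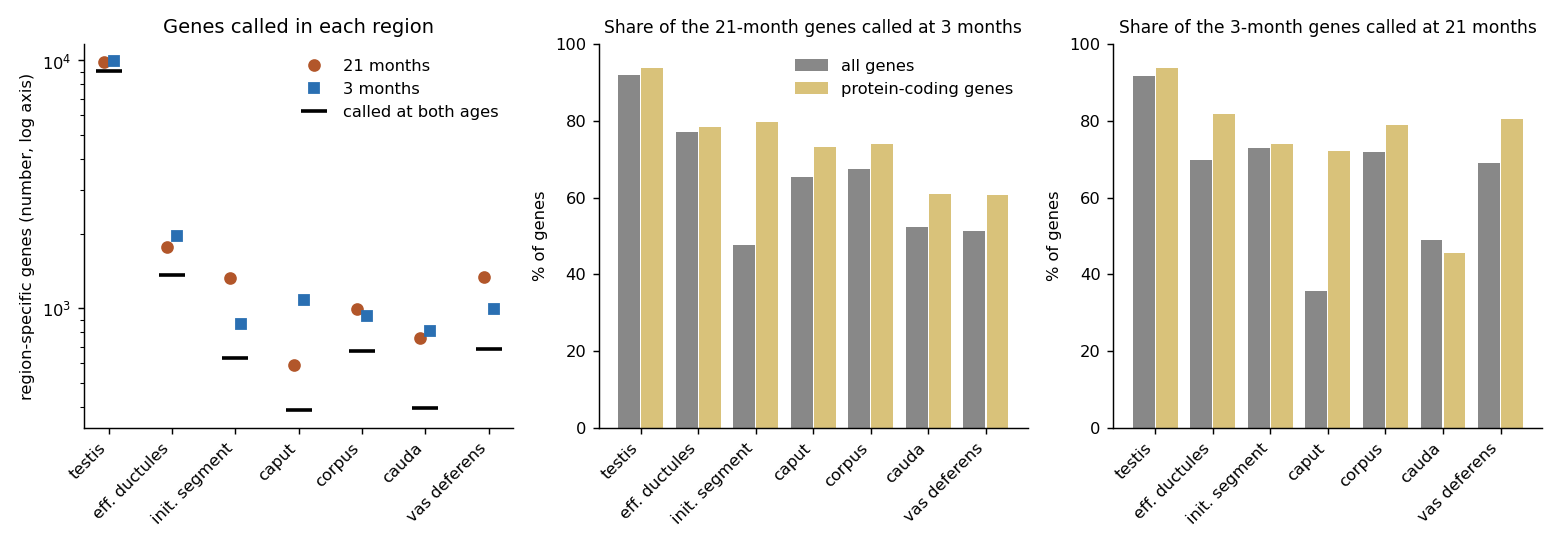
Number of region-specific genes per region at 21 months (circles), at 3 months (squares) and at both ages (dashes) on a log axis, and the shared genes as a percentage of each age's list for all genes (grey bars) and protein-coding genes (yellow bars). The shares are over 90% in the testis, and in the initial segment and caput they are higher for protein-coding genes than for all genes on the side of the longer list.

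The spermatogenic programme of the aged testis stood apart from the ducts as it did at 3 months. All 20 genes of a list for the spermatid nucleus and flagellum were region-specific at both ages, as were 16 of 20 meiosis genes and 16 of 20 Sertoli cell genes. Prm2, a protamine that packs DNA in the sperm nucleus, had 3237, 3142, 3026 and 2788 CPM in the 4 aged testis libraries and 3054, 2988, 2768 and 2325 CPM in the young ones. The aged cauda came next, with 82.1 to 248 CPM. The ranges of Prm2 overlapped between the ages in the testis, and every testis library lay above every other 21-month library. The log2 difference of Prm2 from the other regions was 6.45 at 21 months (standard error 0.20, adjusted p = 3.23e-23 in edgeR's quasi-likelihood test with Benjamini-Hochberg adjustment, as for every adjusted p given here unless limma is named). Dnah8, a dynein heavy chain of the sperm tail, had 3744 ± 206 CPM (SD, n = 4), which was 216 times the level elsewhere, and 3644 ± 443 CPM at 3 months.

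Meiosis genes gave the same picture. Sycp2, a component of the synaptonemal complex, had 471, 447, 456 and 460 CPM at 21 months and 488, 453, 433 and 493 CPM at 3 months, and Stag3, a meiotic cohesin subunit, had 522 ± 13.8 CPM (SD, n = 4) at 21 months. The 4 meiosis genes that were not region-specific were Msh5, Mlh3, Rec8 and Prdm9. Rec8, another cohesin subunit, had 92.0 ± 4.54 CPM in the aged testis against 129 CPM in the aged efferent ductules. Among Leydig cell genes, 9 of 15 were called at 21 months and 10 at 3 months. The one that differed was Cyp17a1, an enzyme of androgen synthesis, with 154, 227, 140 and 171 CPM at 21 months and 208, 269, 236 and 176 CPM at 3 months. These ranges overlapped, and its ratio to the other regions was 3.70 at 21 months and 5.38 at 3 months. The change in its difference did not pass (log2 change -0.16, standard error 0.29, adjusted p = 1). Among the 15 Leydig cell genes the difference changed for none by edgeR. By limma it was larger at 21 months for Star and Hsd3b6 and smaller for none (3.32% of all genes tested changed). With the 6 libraries left out it was larger for 1 gene by edgeR, and 1 gene was higher in level.

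The efferent ductules kept their genes for fluid and protein uptake and for motile cilia. Of 20 uptake genes, 10 were region-specific at 21 months and 11 at 3 months, and of 20 genes for motile cilia, 9 were called at both ages. Aqp1, a water channel, had 632 CPM at 21 months (range 595 to 662), 20.7 times the other regions, and 556 CPM at 3 months (494 to 603). Foxj1, the transcription factor that switches on motile cilia genes, had 623, 773, 908 and 704 CPM at 21 months and 463, 482, 469 and 430 CPM at 3 months, so that the groups did not overlap. Its level in the efferent ductules was 0.71 higher on the log2 scale, which did not pass (adjusted p = 0.181). Of the cilia genes that were not called, Rsph1 and Rfx2 had their highest mean in the testis. With the 6 libraries left out, 9 of the 20 cilia genes were region-specific in the testis at both ages. The efferent ductules also had 9.

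The uptake gene lost from the list was Lrp2, which encodes megalin, a large endocytic receptor. It had 1640, 1622, 1640 and 1775 CPM in the 21-month efferent ductules and 2471, 2231, 2598 and 2344 CPM at 3 months. All aged libraries lay below all young ones, and the aged mean was close to that of the aged cauda (1655 CPM). The log2 change of -0.53 in the region did not pass (adjusted p = 0.305), and the ratio to the other regions moved across the threshold, from 4.71 to 3.27. Cubn, the partner of megalin in protein uptake, was region-specific at both ages with a smaller difference at 21 months (log2 change -1.41, standard error 0.39, adjusted p = 0.0307). Its mean in the efferent ductules was 7.41 CPM (range 4.25 to 14.2) at 21 months and 12.6 CPM (8.81 to 20.3) at 3 months, and without the 6 libraries that stand apart its change was -0.88 and did not pass (adjusted p = 0.179). That check keeps only replicates 1 and 4 of the aged efferent ductules, which have the highest Gm42418 shares of this group. Amn, which anchors cubilin in the membrane, was higher in the aged efferent ductules (8.70 against 4.34 CPM, adjusted p = 0.0261). Cyp2e1, a cytochrome P450, was lower there (81.6 against 250 CPM, log2 change -1.62, adjusted p = 0.0288), yet its ratio to the other regions was 25.2 at 21 months and 18.3 at 3 months. Markers of other cell types also differed in the efferent ductules. Of 15 adipocyte genes, 9 were region-specific at each age, and their sums were 831, 1125, 745 and 517 CPM at 21 months and 1316, 1676, 1263 and 1658 CPM at 3 months, without overlap. The sums of 15 macrophage genes, none of which was region-specific there (1 at 21 months with the 6 libraries left out), were higher without overlap, at 599.7 to 811 CPM against 422 to 454 CPM. No gene of either list was at 0 in all libraries of an age, and the part of these cells in the efferent ductules values was not tested.

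Among the cilia genes, Tppp3, a tubulin-binding protein, had a larger difference at 21 months (log2 change 0.88, standard error 0.24, adjusted p = 0.0258). Mcidas, an early regulator of multiciliated cells, had a smaller one (log2 change -1.96, standard error 0.49, adjusted p = 0.0144), with 0 to 0.614 CPM at 21 months and 1.42 to 1.64 CPM at 3 months. Cyp2d9, a cytochrome P450 that was 549 times the other regions at 21 months, had 60.4, 40.3, 33.6 and 52.4 CPM at 21 months and 14.1, 12.3, 20.6 and 19.9 CPM at 3 months. All aged libraries lay above all young ones (log2 change in the region 1.48, adjusted p = 0.00266). Transcripts of the adjoining initial segment were unevenly present in the aged efferent ductules. The summed level of the initial segment list was 892, 3816, 2009 and 1041 CPM in replicates 1 to 4, against 669 to 763 CPM at 3 months. Replicates 2 and 3 are among the 6 libraries left out in the check.

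The initial segment kept its secreted proteins. Of 20 genes for secreted and membrane proteins, 18 were region-specific at both ages, and the caput was the region with the next highest mean for most of them. Lcn8, a lipocalin, had 6300, 5995, 7836 and 7342 CPM at 21 months and 8514, 7628, 8434 and 6928 CPM at 3 months. The caput had 780 CPM at 21 months and 576 CPM at 3 months, and the ratio of the initial segment to the other 6 regions was 44.8 and 81.7. The level in the initial segment overlapped between the ages. The log2 change of the difference was -1.56 (adjusted p = 0.994), and without the 6 libraries, of which replicates 2 and 3 of the aged efferent ductules carry this transcript, it was 0.015 (adjusted p = 1) and the ratios were 52.7 and 72.5. Mfge8, a secreted glycoprotein that binds membranes, had 5727, 5225, 6032 and 5514 CPM at 21 months and 6814, 7175, 7164 and 7568 CPM at 3 months, with no overlap, and the change of -0.35 in the region did not pass (adjusted p = 0.767).

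Over the list the size of the change also depended on those libraries. The median log2 difference of the 20 genes was 9.14 at 21 months and 10.8 at 3 months, where the medians of all genes tested were -0.283 and -0.156. The median change was -1.56, against -0.147 over all genes tested, and without the 6 libraries it was -0.51 against -0.11. None of the 20 changes passed the adjusted test by edgeR or by limma, and 7 had an unadjusted p under 0.05 by edgeR. Over all genes tested, 12.7% had an unadjusted p under 0.05, and 0.517% were larger and 1.38% smaller after adjustment. The summed level of the list was 73311, 70418, 76735 and 72954 CPM in the aged initial segment and 80238, 89114, 82508 and 92138 CPM in the young one, without overlap. In the caput it was 34574 to 39253 CPM at 21 months and 26302 to 40248 CPM at 3 months. Of the 631 genes called in the initial segment at both ages, 67.8% had a smaller difference at 21 months, against 41.7 to 53.7% in the other 6 regions. With the 6 libraries left out the share was 55.1% here, against 57.7% for efferent ductules and 35.6 to 49.3% for the remaining 5 regions.

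Genes of the signalling pathway that forms the initial segment were also kept. Of 19 measured genes of the ROS1, ERK and ETS pathway, which carries luminal signals from the testis to gene expression in this epithelium, 5 were region-specific at both ages. None changed by edgeR or limma, and 6 had an unadjusted p under 0.05 by edgeR. Ros1, the receptor kinase, had 715, 743, 769 and 792 CPM at 21 months and 946, 1011, 933 and 790 CPM at 3 months, with the lowest young library inside the aged range. Etv5, an ETS transcription factor, had 739 ± 87.6 CPM at 21 months and 786 ± 85.7 CPM at 3 months, 18.9 and 26.1 times the other regions. Spint5 had no counts in any aged initial segment library, which allows up to 3 counts over the group, and 82.1 CPM in the caput. Among the genes whose difference changed, Lipf, a lipase, had 0.528, 1.20, 1.67 and 1.61 CPM at 21 months and 8.07, 6.16, 8.90 and 6.45 CPM at 3 months. All aged libraries lay below all young ones, and Lipf was no longer region-specific (log2 change of the difference -2.80, standard error 0.75, adjusted p = 0.0323). Without all replicates 1, 2 or 4 in turn the adjusted p was 0.0963 to 1.

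**Figure D2:**
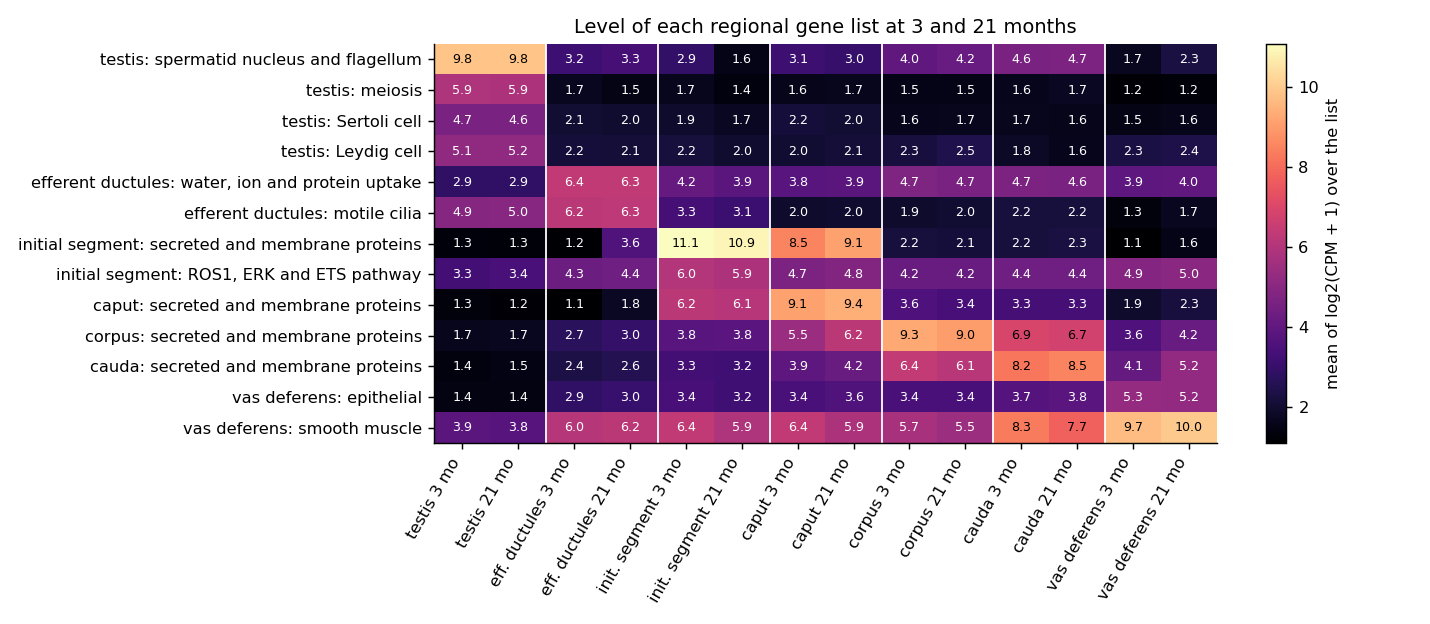
Mean of log2(CPM + 1) over each regional gene list (vertical) in each region at 3 and 21 months (horizontal), with the value printed in each cell and a colour scale. For each list of secreted, epithelial or germ cell genes the brightest cells are those of its own region at both ages, and the caput is the next brightest for the initial segment list.

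In the caput, 16 of 20 genes for secreted and membrane proteins were region-specific at both ages. Rnase13, a ribonuclease A family member, had 484, 510, 696 and 548 CPM at 21 months, 1810 times the other regions, and 897, 1552, 710 and 1071 CPM at 3 months. Lcn5, a lipocalin that binds retinoic acid, had 4670, 4590, 5485 and 4447 CPM at 21 months and 4388, 4804, 3826 and 5470 CPM at 3 months. Every aged library was below every young one for Rnase13, and the ranges overlapped for Lcn5. The change of Rnase13 in the caput was -0.92 (adjusted p = 0.0941), and the change of its difference passed in limma on log2(CPM + 1) (-0.80, adjusted p = 0.0449) and not in edgeR (0.33, adjusted p = 1).

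Clu, a secreted chaperone, had 10278, 9993, 12586 and 10758 CPM in the aged caput and 14327, 15145, 14244 and 17374 CPM in the young one. The aged cauda, the next region, had 3782 to 7027 CPM, and the ratio of the caput to the other regions was 6.52 at 21 months and 15.7 at 3 months. All aged caput libraries lay below all young ones, and the change of the difference of -0.91 did not pass (adjusted p = 0.0899; 0.0268 with DESeq2). Gpx5, a secreted glutathione peroxidase, had 17474, 19861, 22100 and 17317 CPM in the aged caput and 14267 to 16148 CPM in the aged initial segment, and was called in both regions at both ages.

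Genes that became region-specific in the aged caput included Defb19, a beta-defensin, and Pkd2l1, a cation channel. Defb19 had 48.3, 38.8, 133 and 88.8 CPM at 21 months and 3.77, 6.69, 4.16 and 7.49 CPM at 3 months. Pkd2l1 had 23.1, 22.2, 29.4 and 30.5 CPM at 21 months and 1.61, 2.68, 1.70 and 2.83 CPM at 3 months. For both genes all aged libraries were several times above all young ones, and the testis was the other region with a comparable level (52.4 CPM of Defb19 and 20.2 CPM of Pkd2l1 at 21 months). The log2 difference from the other regions changed by 4.67 for Defb19 (standard error 1.31, adjusted p = 0.0187, and 0.0516 without the 6 libraries, with the call also lost without the replicates numbered 2 or 3) and by 3.05 for Pkd2l1 (standard error 0.39, adjusted p = 6.85e-07). In the caput itself the log2 changes were 3.83 and 3.61 (adjusted p = 8.49e-10 and 1.2e-09). Defb18 (164 against 67.9 CPM) and Cst12, a cystatin (90.6 against 24.7 CPM), were also higher in the aged caput (log2 changes 1.27 and 1.86, adjusted p = 0.0313 and 0.0094), where 2.86% of all genes tested were higher and 3.4% lower. Gm24270, a miRNA gene, lost its caput call, but 1 young library held 3438 CPM of it and the other 7 caput libraries 22.1 to 99.6 CPM.

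The corpus kept most of its secreted proteins. Of 20 genes for secreted and membrane proteins, 14 were region-specific at 21 months and 17 at 3 months, and all 14 were called at 3 months too. With the 6 libraries left out the numbers were 15 and 16. Npy, a neuropeptide, had 1084, 970, 1300 and 1081 CPM at 21 months and 1163, 1084, 775 and 1064 CPM at 3 months. Defb22, a beta-defensin of the sperm coat, had 1487, 874, 781 and 1063 CPM at 21 months and 1323, 1379, 988 and 1309 CPM at 3 months. Npy was 149 times and Defb22 148 times the other regions at 21 months, and both overlapped between the ages. The 3 genes called only at 3 months were Cuzd1, Gpx3 and Rnase12, whose ratios moved from 6.18 to 3.90, from 4.35 to 3.74 and from 5.73 to 3.71, and none of these changes passed. With the 6 libraries left out Cuzd1 was above the limit at both ages (5.70 and 4.02), Gpx3 below it at both (3.92 and 3.64), and Rnase12 went from 5.34 to 3.79. The change of Cuzd1 was -0.83 (adjusted p = 0.152) and passed without the 6 libraries (-0.73, adjusted p = 0.0143). Cuzd1, a zona pellucida domain protein, had 7127, 5527, 5136 and 5920 CPM at 21 months and 7985, 8016, 7704 and 8668 CPM at 3 months, without overlap.

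The gene with the clearest gain in the corpus was Th, tyrosine hydroxylase, the first enzyme of catecholamine synthesis. It had 12.3, 11.97, 15.9 and 16.6 CPM at 21 months and 2.64, 4.32, 2.57 and 2.47 CPM at 3 months. The aged cauda reached a similar level (11.7 CPM, range 7.16 to 16.3). All aged corpus libraries lay above all young ones, and the difference from the other regions rose by 2.32 on the log2 scale (standard error 0.48, adjusted p = 0.0222). Lzts1 rose from 8.28, 9.33, 11.1 and 6.73 CPM in the young libraries to 17.9 to 22.8 CPM in the aged ones (log2 change of the difference 1.47, adjusted p = 0.0218). Nudt5, a nucleotide hydrolase, fell from 99.6 to 130 CPM at 3 months to 70.03 to 85.2 CPM at 21 months and left the list (log2 change of the difference -0.58, standard error 0.12, adjusted p = 0.0215). Without the 6 libraries these changes of Th, Lzts1 and Nudt5 were 2.36, 1.41 and -0.56 (adjusted p = 0.000279, 0.00319 and 0.00031), and each call was lost when the replicates of some number were left out of all groups.

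In the cauda, 17 of 20 genes for secreted and membrane proteins were region-specific at 21 months and 18 at 3 months, and with the 6 libraries left out the numbers were 19 and 18. Ly6e and Wfdc10 had ratios of 3.94 and 3.93 at 21 months, just under the limit, and 4.64 and 4.35 with those libraries left out. Spink14, a protease inhibitor, had 129, 205, 95.6 and 84.7 CPM at 21 months, 636 times the other regions, and 86.3, 117, 21.9 and 102 CPM at 3 months. The low young value belongs to replicate 3, one of the libraries that stand apart. Crisp1, a cysteine-rich secretory protein that coats sperm, had 14410, 31409, 12609 and 16432 CPM at 21 months and 15962, 16552, 9544 and 17856 CPM at 3 months. Replicate 2 of the aged cauda was far above the other 3, and the ages overlapped without it. Kcnk3, a potassium channel, was lower in the aged cauda (6.79 against 13.6 CPM, log2 change -1.01, adjusted p = 0.0338), where 0.776% of genes tested were higher and 2.7% lower.

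Markers of other cell types differed between the cauda libraries. Replicate 3 of the 3-month cauda held 3949 CPM of 15 macrophage genes against 513 to 547 CPM in the other 3, and the aged cauda held 448 to 637 CPM. Spp1, which encodes osteopontin, had 822 CPM in that library and 0.616 to 1.40 CPM in the other young ones, and Mmp12, a macrophage protease, 262 CPM and 0.319 to 0.635 CPM. In the aged cauda Spp1 had 0.457 to 0.673 CPM and Mmp12 1.74 to 2.32 CPM. Of 15 macrophage genes, 5 were region-specific in the young cauda and none in the aged one, and in 8 the difference was smaller at 21 months (1.73% of all genes tested). The log2 change of the difference of Spp1 was -9.32 (adjusted p = 0.000117) and that of Mmp12 -7.56. Leaving out the 6 libraries they were -1.66 (adjusted p = 0.436) and -0.53 (adjusted p = 1), and none of the 15 genes was region-specific in the cauda at either age. Skeletal muscle genes, of which 8 of 15 were called in the young cauda and none in the aged one, summed to 67.1, 32.6, 79.6 and 62.0 CPM at 21 months and to 250, 232, 124 and 111 CPM at 3 months. Their part in the cauda lists was not tested.

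In the vas deferens the epithelial genes kept their regional calls, with single genes changed in either direction. Akr1b7, an aldo-keto reductase that is the best known androgen-regulated product of this epithelium, had 17070, 16479, 16514 and 10317 CPM at 21 months, 451 times the other regions. At 3 months it had 20107, 22578, 19947 and 20364 CPM, above all aged libraries, and the change of -0.46 in the region did not pass (adjusted p = 0.735). Ptgs2, which makes prostaglandin precursors, had 5166, 4054, 4255 and 3727 CPM at 21 months and 3993, 3750, 4308 and 3979 CPM at 3 months. Of 20 epithelial genes, 8 were region-specific at both ages. Abcg2, a membrane transporter, had 1111 CPM (range 728 to 1332) at 21 months and 2382 CPM (2231 to 2633) at 3 months, and its difference was smaller (log2 change -0.99, standard error 0.19, adjusted p = 0.00026). Plac8 also had a smaller difference (-0.77, standard error 0.20, adjusted p = 0.00724). Krt4, a keratin of stratified epithelia, was higher in the aged region (33.7 against 10.5 CPM, log2 change 1.68, adjusted p = 0.000881).

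Smooth muscle genes set the aged vas deferens further apart from the other regions than the young one. Of 18 genes, 16 were region-specific at 21 months and 15 at 3 months, and in 10 of them the difference was larger at 21 months while in none was it smaller (over all genes tested, 6.51% were larger and 1.19% smaller). Myh11, the smooth muscle myosin heavy chain, had 7336, 7520, 9184 and 5363 CPM at 21 months and 5124, 5056, 5011 and 4969 CPM at 3 months. All aged libraries lay above all young ones, with replicate 4 of the aged group only slightly so. The difference of Myh11 grew by 1.05 on the log2 scale (standard error 0.16, adjusted p = 7.2e-06), of which 0.54 was a rise in the vas deferens (adjusted p = 0.00762) and 0.50 a fall in the mean of the other regions (adjusted p = 1.53e-08). The other 9 were Acta2 (0.92), Tagln (0.93), Cnn1 (0.83), Myl9 (0.91), Tpm1 (0.62), Tpm2 (1.18), Smtn (0.76), Lmod1 (0.85) and Myocd (0.75), which encode contractile proteins and, for Myocd, a cofactor that drives them. Mylk, Flna, Synpo2, Csrp1 and Dmpk, with log2 changes of 0.18 to 0.43, and Des (0.58) were region-specific at both ages and did not pass. Actg2, the enteric actin, had its highest mean in the initial segment (1523 CPM) and not in the vas deferens (1045 CPM, 693 to 1302). The summed level of the list was 34746, 36063, 42646 and 26431 CPM in the aged vas deferens and 27672 to 29259 CPM in the young one, so that replicate 4 lay below the young range. With the 6 libraries left out, replicate 4 among them, the difference was larger in 17 of the 18 genes and smaller in none. By limma the difference was also larger for 6 of the 18 in the efferent ductules, where 7.29% of all genes tested changed. It was smaller for 4 in the caput (11.4%) and 2 in the cauda (2.27%). With the same libraries left out, the level was higher for 13 and lower for none in the aged vas deferens. It was lower for 15 in the initial segment, 12 in the caput and 12 in the cauda, and higher for none there. In the efferent ductules it was higher for 4 and lower for 5. Skeletal muscle genes also moved in the vas deferens. Of 15, 8 were region-specific in the aged vas deferens and 4 in the young one, and the difference was larger at 21 months in 5 and smaller in none (median log2 change 2.31, against 0.156 over all genes tested), and larger in 8 with the 6 libraries left out. Their summed level was 397, 370, 401 and 177 CPM at 21 months and 302 to 408 CPM at 3 months, which overlapped, and their part in the smooth muscle values was not tested.

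Promoter windows are shown for 1 gene of the epithelial group and 1 of the smooth muscle group, the main groups of this region. They run from 250 bases before to 50 bases after the annotated start, on the plus strand of build GRCm38.p6, and were taken from RefSeq. In the Akr1b7 window (chr6:34412112-34412411) the capitals mark a match to AGAACA, the androgen response half-site, read on the opposite strand and ending 94 bases before the start. In the Myl9 window (chr2:156775214-156775513) they mark a CArG box, the motif bound by serum response factor, ending 151 bases before the start.
Akr1b7: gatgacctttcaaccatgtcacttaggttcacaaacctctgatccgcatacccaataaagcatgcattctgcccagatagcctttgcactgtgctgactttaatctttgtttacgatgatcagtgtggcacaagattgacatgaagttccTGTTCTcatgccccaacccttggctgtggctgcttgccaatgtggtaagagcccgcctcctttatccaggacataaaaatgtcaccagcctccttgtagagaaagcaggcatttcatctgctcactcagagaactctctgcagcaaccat
Myl9: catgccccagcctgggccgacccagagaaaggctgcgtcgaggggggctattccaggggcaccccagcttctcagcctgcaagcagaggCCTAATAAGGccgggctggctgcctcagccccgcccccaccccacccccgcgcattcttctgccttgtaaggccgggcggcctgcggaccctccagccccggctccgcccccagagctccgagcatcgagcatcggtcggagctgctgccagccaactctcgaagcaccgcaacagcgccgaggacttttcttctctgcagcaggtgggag
Searched on both strands, AGAACA was in 19.0% of all 32851 windows, and in 16.1% of the windows of the genes called in the aged vas deferens and 27.4% of those called in the aged cauda. It was in 4 of 20 windows of the epithelial list and 3 of 15 of the smooth muscle list. The CArG box was in 1.63% of all windows, in 3.80% of those of vas deferens genes and in 3.23% of those of caput genes, and over the other 5 regions in 0.768 to 1.65%. It was in 1 of 15 windows of the smooth muscle list and in none of 20 of the epithelial list. These windows belong to 14 of the 18 smooth muscle genes and 17 of the 20 epithelial genes. A match describes the letters of the window and not a bound site.

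Lymphocyte genes joined the regional list of the aged vas deferens. Of 15 B and plasma cell genes, 11 were region-specific at 21 months and 1 at 3 months, and in 8 the difference was larger at 21 months by edgeR (12 by limma, where 6.95% of all genes tested were larger). Their summed level was 1361, 956, 1145 and 1950 CPM in the 4 aged libraries and 143 to 183 CPM in the young ones. Pax5, the transcription factor of B cells, had 16.8, 8.52, 13.5 and 79.8 CPM at 21 months and 1.005, 0.188, 1.04 and 0.487 CPM at 3 months, and the testis had 27.4 CPM. All aged libraries were above all young ones, replicate 4 most of all (log2 change of the difference 5.20, standard error 0.55, adjusted p = 1.22e-08). Without the 6 libraries the change was 4.21 (adjusted p = 7.67e-11), the ratio to the other regions fell to 2.51 and Pax5 was not region-specific. Ighm, the heavy chain of IgM, had 593 CPM (429 to 873) against 14.1 CPM (8.18 to 19.3). Of 15 T cell genes, 4 were called at 21 months and none at 3 months, and the difference was larger in 9 (13 by limma), with summed levels of 60.1, 35.1, 37.3 and 99.0 CPM against 8.41 to 13.4 CPM. When the 6 libraries were left out, 10 B and plasma cell genes and 1 T cell gene were region-specific at 21 months, and the difference was larger in 8 and 5. Lymphocyte transcripts were not restricted to the aged vas deferens. The T cell sums were highest in the initial segment at 3 months (65.8 to 120.4 CPM) and were 69.8 to 108 CPM there at 21 months, and 2 T cell genes were region-specific in that region at both ages. They were higher without overlap in 4 other aged regions, at 14.8 to 16.2 CPM against 13.1 to 14.5 CPM (testis), 18.4 to 30.8 CPM against 8.11 to 10.1 CPM (efferent ductules), 21.2 to 26.3 CPM against 8.43 to 15.7 CPM (caput) and 26.4 to 28.5 CPM against 12.2 to 16.5 CPM (corpus). With the 6 libraries left out, the level of no T cell gene passed as higher in the aged testis. In the efferent ductules 8 passed, in the caput 8 and in the corpus 2. By limma the difference of the testis was smaller at 21 months for Lck, Trbc2 and Cd8a, and larger for none. The B and plasma cell sums were higher without overlap at 271 to 767 CPM against 111 to 139 CPM (efferent ductules), 191 to 235 CPM against 89.5 to 168 CPM (caput), 291 to 562 CPM against 243 to 267 CPM (corpus) and 241 to 547 CPM against 194 to 206 CPM (cauda). With the 6 libraries left out, the level was higher for 10 of these genes in the efferent ductules and lower for 1. It was higher for 2 in the caput, 8 in the corpus and 7 in the cauda. By limma the difference of the caput was larger at 21 months for Xbp1 alone. It was smaller for Ighg2c, Ighm, Cr2, Jchain and Iglc2.

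Seminal vesicle genes were present in the aged vas deferens at uneven levels. Svs2, a major seminal vesicle secretory protein, had 403, 1641, 708 and 8.39 CPM at 21 months and 0.582, 1.13, 1.58 and 0.487 CPM at 3 months. Replicate 2 held most and replicate 4 least, and the rise in the region was 9.51 on the log2 scale (adjusted p = 5.09e-11). The change of the difference did not pass by edgeR (adjusted p = 0.292) and passed by limma (adjusted p = 3.51e-10). Over 10 seminal vesicle genes the sums were 494, 1936, 855 and 43.1 CPM at 21 months and 6.57 to 9.04 CPM at 3 months, with 2 to 4 of the genes at 0 in the aged libraries, and 3 were called at 21 months (Svs2, Svs5 and Pate4) and 1 at 3 months. The cauda also held genes of this list at both ages, with sums of 200.2 to 327 CPM at 21 months and 139.6 to 268 CPM at 3 months. There 6 of the 10 genes were region-specific at both ages (7 at 21 months with the 6 libraries left out), led by Spinkl (123 CPM at 21 months) and Svs1 (103 CPM), and the 3 genes called in the aged vas deferens were not among them. Their part in the vas deferens and cauda lists was not tested. Haemoglobin and other red blood cell genes, in contrast, summed to 83.3, 126, 46.5 and 9.36 CPM at 21 months and to 83.0 to 145 CPM at 3 months, and 2 were called at 3 months (3 with the 6 libraries left out) and none at 21 months.

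**Figure D3:**
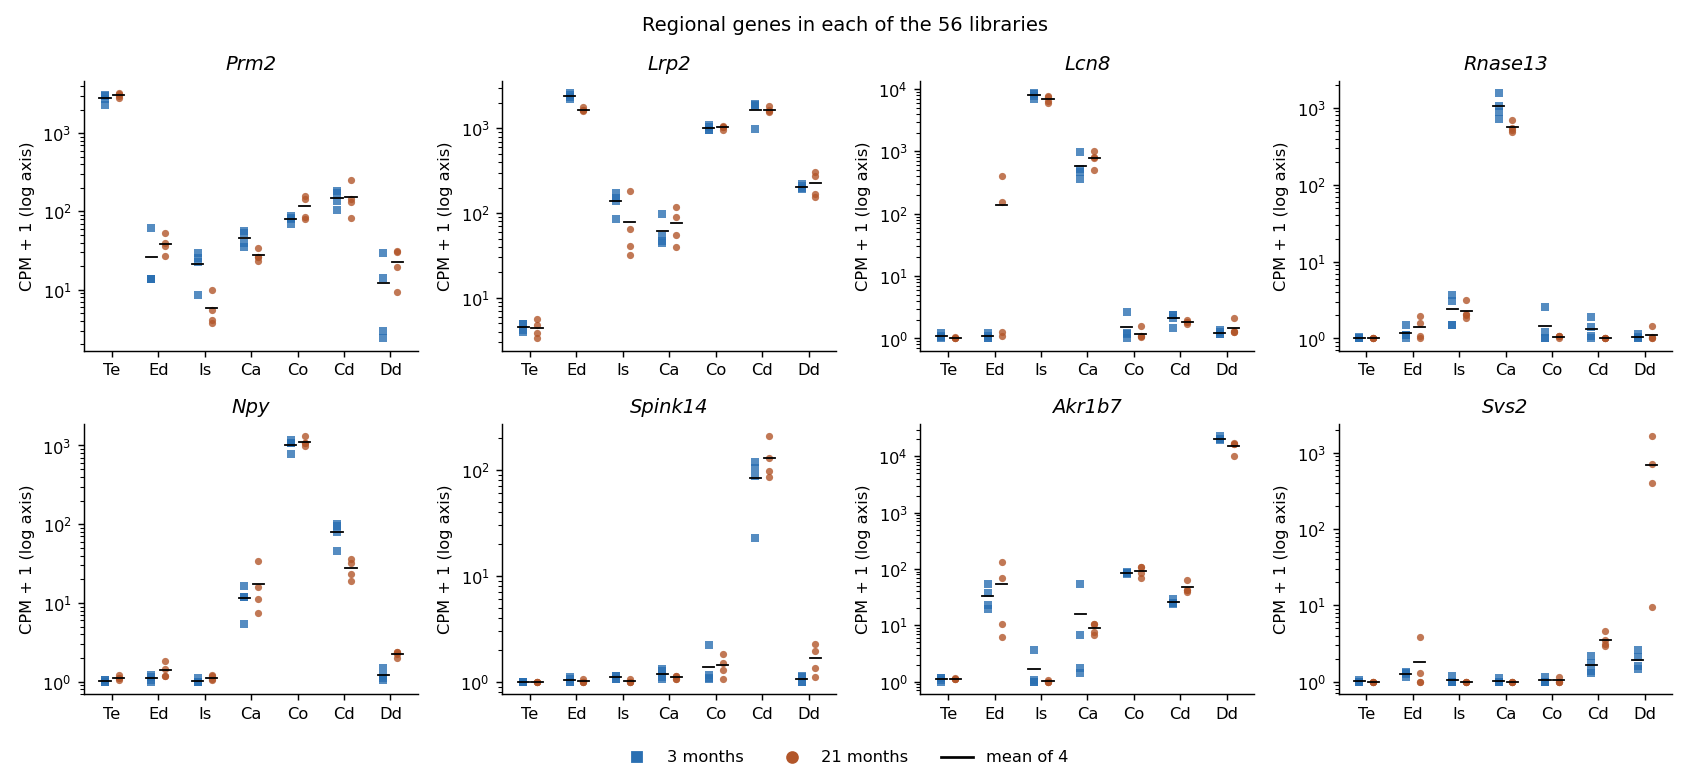
Levels (CPM + 1, log axis) of 8 regional genes in every library of the testis (Te), efferent ductules (Ed), vas deferens (Dd) and the epididymal pieces from the initial segment (Is) over the caput (Ca) and corpus (Co) to the cauda (Cd), with squares for 3 months, circles for 21 months and a line at the mean of 4. Lrp2 has nearly equal means in the aged efferent ductules and cauda, and Svs2 lies between 8.39 and 1641 CPM in the aged vas deferens and at or below 1.58 CPM in the young one.

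Some genes that give position along the duct during development were region-specific at both ages, and their order along the tract was not computed. Of 18 genes of the 5-prime Hox clusters, 8 were region-specific in the aged vas deferens and 7 in the young one (over all genes tested, 3.88% and 2.89%). With the 6 libraries left out, 1 was called in the aged cauda and 3 in the young one. The efferent ductules then had 1 and 2, and the testis and initial segment 0 and 1 each. Hoxb13 was called in the aged efferent ductules, and its difference was larger by limma (log2 change 0.22, adjusted p = 0.0242). Hoxd13 had 15.7, 14.1, 13.2 and 7.19 CPM at 21 months and 13.01, 11.2, 10.2 and 11.4 CPM at 3 months, and the cauda came next with 0.206 CPM. Hoxa13 had 14.5, 10.1, 5.79 and 1.03 CPM at 21 months and 4.85 to 7.40 CPM at 3 months, and replicate 4 was again the lowest aged library. Gata3, a factor of the developing duct, had 679, 571, 622 and 526 CPM in the aged vas deferens and 373, 284, 378 and 400 CPM in the young one, with no overlap, and the log2 change of 0.74 in the region did not pass (adjusted p = 0.12; 2.98e-05 without the 6 libraries). Foxa1, a pioneer factor, rose from 2.82 to 3.26 CPM to 6.39 to 9.48 CPM (log2 change 1.36, adjusted p = 0.00964; over all genes tested, 8.56% were higher). In the efferent ductules, Hnf4a (211, 238, 287 and 241 CPM), Lhx1 (17.6 to 36.6 CPM) and Wnt9b (3.07 to 3.87 CPM) were region-specific at both ages.

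A set of mostly low and non-coding transcripts was called in the caput at 3 months and in the initial segment at 21 months. At 21 months 696 genes were called in the initial segment that were not called there at 3 months, and at 3 months 695 genes were called in the caput that were not called there at 21 months. Of these, 312 genes were in both sets, 44.8% of the first and 44.9% of the second. Of the 312, 7.69% were protein-coding and 45.5% were antisense genes, against 55.0% and 6.72% of all genes tested. An expressed gene with at least 100 CPM lay on the opposite strand of 54.8% of them, against 7.43% of all genes tested. The median of their highest regional mean was 0.447 CPM, against 6.36 CPM over all genes. The libraries were made with a kit that marks the strand, but whether the counting used the strand is not given in the sources used here. Without it, reads of these genes and of their opposite-strand partners cannot be told apart. These counts describe genes chosen by their calls and are no test.

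By library, the median over the 312 genes was 0.470, 0.353, 0.468 and 0.451 CPM in the aged initial segment and 0 in all 4 aged caput libraries. At 3 months it was 0.0598 to 0.0714 CPM in the initial segment, and 0.0554, 0.401, 0.438 and 0.440 CPM in the caput. Replicate 1 of the young caput lay with the young initial segment, apart from its 3 fellows. Replicates 3 and 4 of the aged vas deferens held 0.225 and 0.114 CPM and replicates 1 and 2 held 0. Genes called in the initial segment at both ages had another make-up, with 53.2% protein-coding and 9.03% antisense genes. Gm15241, an antisense gene called in the initial segment at 21 months only, had 12.7, 9.03, 13.3 and 13.8 CPM in the aged initial segment and 1.36, 2.03, 1.14 and 1.29 CPM in the young one, while the young caput had 3.10 CPM. Its change in the initial segment was 3.06 on the log2 scale (adjusted p = 2.71e-05).

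**Figure D4:**
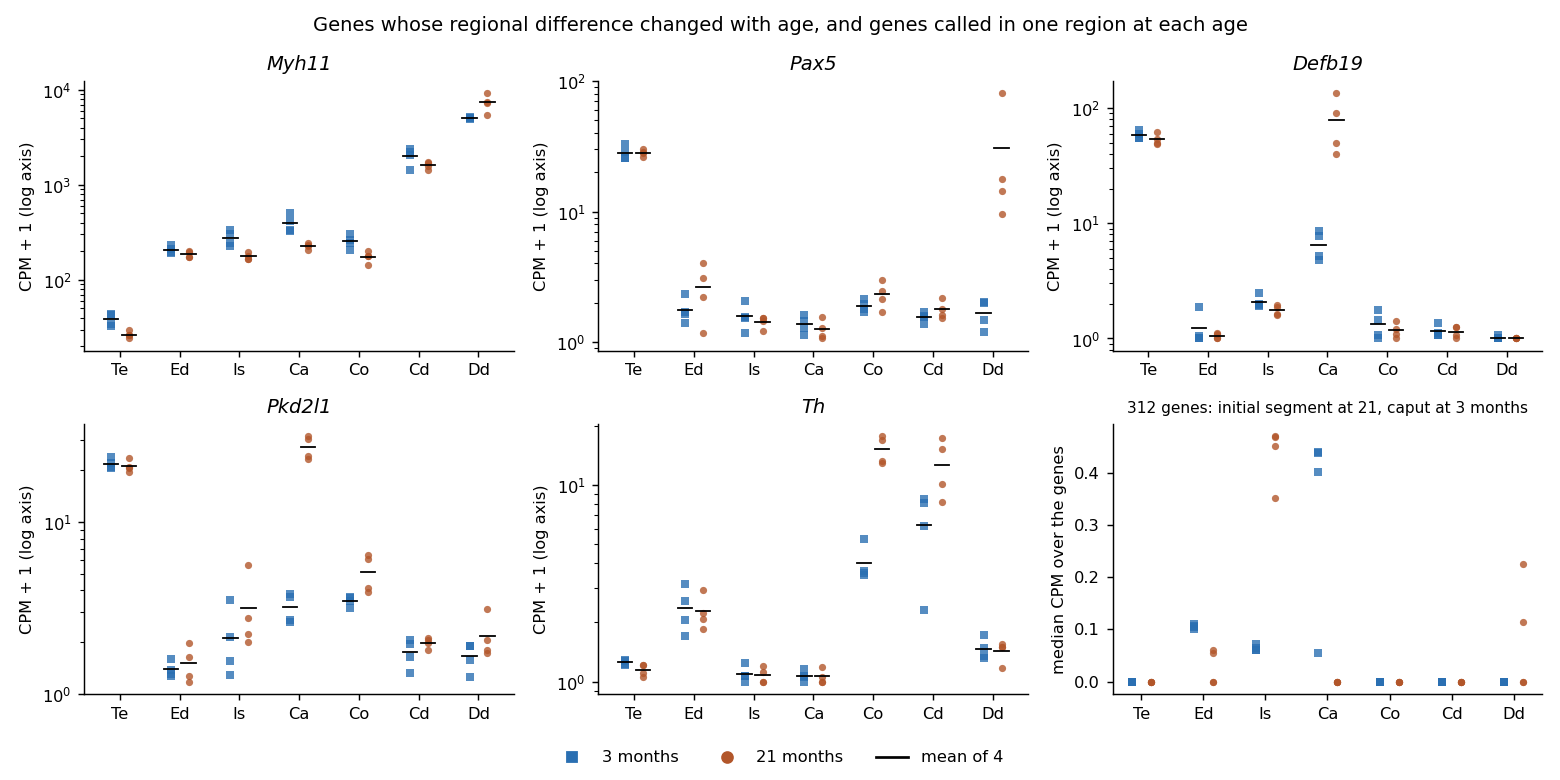
Levels (CPM + 1, log axis) of 5 genes whose regional difference was larger at 21 months, and the median CPM (linear axis) over the 312 genes called in the initial segment only at 21 months and in the caput only at 3 months, in every library of the 7 regions, where Te, Ed and Dd are the testis, efferent ductules and vas deferens and Is, Ca, Co and Cd run from the initial segment to the cauda. Squares are 3 months, circles 21 months and lines, drawn for the 5 genes, the mean of 4, and the last panel shows 3 of 4 young caput libraries and all 4 aged initial segment libraries at 0.353 CPM or above.

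Whether a regional difference itself changed with age was tested over 36977 genes in one fit of the 56 libraries. By edgeR the difference changed for 24 testis genes (0.0649% of genes tested), and the numbers for the other regions were 1390 (3.76%, efferent ductules), 2848 (7.7%, vas deferens), 702 (1.9%, initial segment), 2568 (6.94%, caput), 46 (0.124%, corpus) and 851 (2.3%, cauda). Among the genes that were region-specific at either age, the changed ones numbered 4 of 10719 (testis), 81 of 2357 (efferent ductules), 197 of 1651 (vas deferens), 94 of 1561 (initial segment), 163 of 1288 (caput), 10 of 1254 (corpus) and 123 of 1168 (cauda). These shares lay above the share over all genes in the epididymal regions and the vas deferens, and below it in the testis and efferent ductules, but the genes were chosen by their calls in these libraries. The numbers over all genes moved with single libraries. Without replicate 2 of the 3-month caput, the library with the highest share of Gm42418, the caput had 1293, without replicate 3 of the 3-month cauda the cauda had 143, the corpus 85 and the testis 45, and without replicate 2 of the aged cauda these 3 had 239, 71 and 40. Without all 6 libraries there were 359 (testis), 4473 (efferent ductules), 3925 (vas deferens), 1732 (initial segment), 2697 (caput), 619 (corpus) and 146 (cauda). For the efferent ductules this left only replicates 1 and 4 at 21 months. Between 50.2% (efferent ductules) and 68.6% (caput) of these region-specific genes had no counts at all in some other region. In the caput 883 of the 1288 genes and 46 of the 163 changed genes were of this kind, and what these zeros do to the test was not tested.

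The same contrast by limma on log2(CPM + 1), chosen after seeing the data, called 1007 of these genes for the testis, 581 for efferent ductules, 590 for initial segment, 618 for caput, 137 for corpus, 211 for cauda and 627 for vas deferens (over all genes tested 3.32%, 7.29%, 4.29%, 11.4%, 0.86%, 2.27% and 9.07%). By edgeR the level inside the region differed between the ages for 3 of the region-specific genes of the testis, 169 of the efferent ductules, 230 of the initial segment, 337 of the caput, 32 of the corpus, 187 of the cauda and 410 of the vas deferens (over all genes tested 0.027%, 8.21%, 3.65%, 6.26%, 0.855%, 3.48% and 11.2%). Among the ducts the corpus had the fewest changes of its region-specific genes by each of these 3 measures. With the 6 libraries left out, 38 of 1242 corpus genes and 35 of 942 cauda genes changed by edgeR. Of the 4 region-specific genes of the testis whose difference changed by edgeR, none passed for the level in the testis itself and all 4 passed for the mean of the other regions. Dmrta1, for instance, had 22.9 to 25.6 CPM in the aged testis and 21.1 to 28.3 CPM in the young one, and had 7.31 CPM in the young and 33.7 CPM in the aged initial segment. The change of its difference was -1.93 (adjusted p = 0.0465), and -0.55 without the 6 libraries (adjusted p = 1).

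The similarity of the regions was compared by Pearson's r of log2(CPM + 1) over 36977 genes. It was highest between an aged library and another of its own region for 28 of 28 libraries, and the closest 3-month regional mean was that of the same region for 28 of 28. Average linkage on 1 - r gave the same 6 clusters at both ages. The corpus and cauda joined first (height 0.0318 at 21 months and 0.0259 at 3 months), then the initial segment and caput (0.0361 and 0.0343). The vas deferens joined the corpus and cauda (0.0529 and 0.0578), these 5 regions met at 0.0710 and 0.0700, and the efferent ductules (0.0908 and 0.0897) and the testis (0.308 and 0.308) came last. Between the ages r of the regional means was 0.990 in the vas deferens and 0.999 in the testis, the lowest and the highest of the 7 regions. Over the 21 pairs of regions r ran from 0.675 to 0.968 at 21 months, and the values of the 2 ages correlated at 0.998 (Spearman's rho 0.970), and at 0.970 over the 15 pairs without the testis. The region closest to the testis was the cauda at 21 months (r = 0.707, and 0.703 at 3 months) and the efferent ductules at 3 months (0.705, and 0.699 at 21 months). The least similar pair was the testis and initial segment at 21 months (0.675) and the testis and vas deferens at 3 months (0.668, and 0.677 at 21 months). The pairs share regions and genes, so no p is given.

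**Figure D5:**
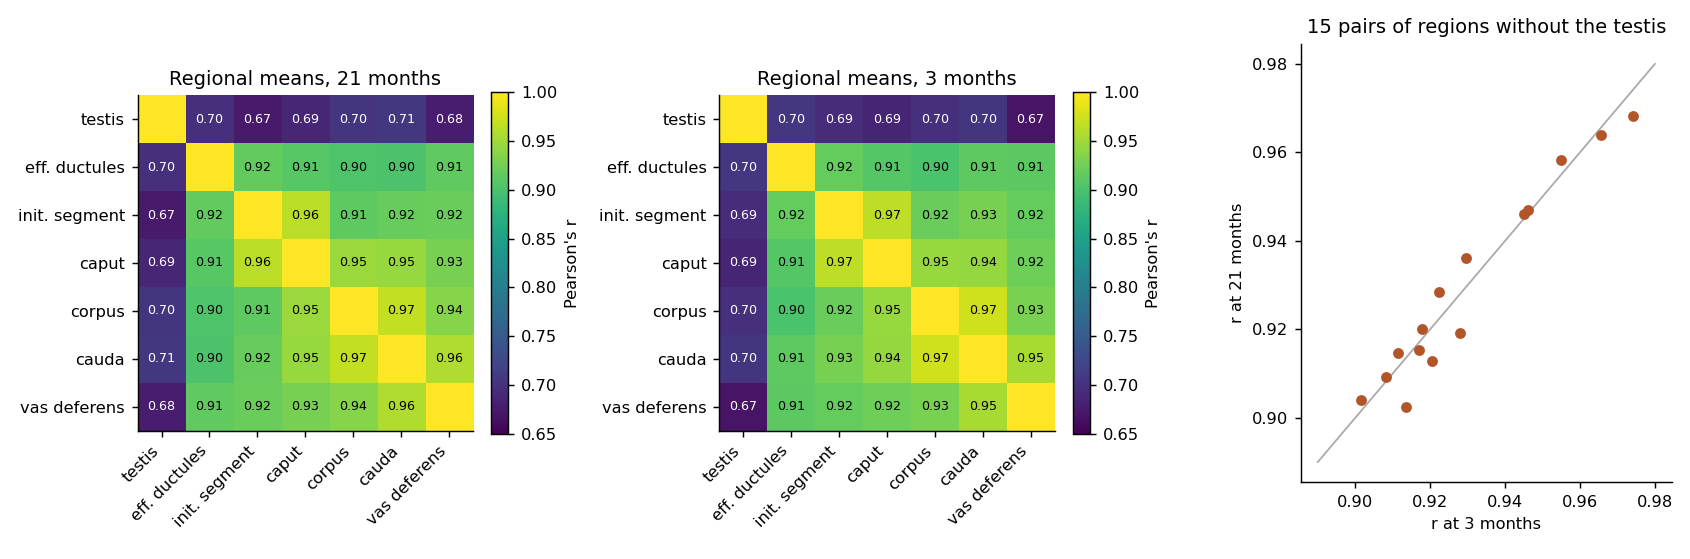
Pearson's r between regional means of log2(CPM + 1) at 21 and at 3 months (matrices, with the value in each cell), and r at 21 months against r at 3 months for the 15 pairs of regions without the testis, with the line of equality. The testis row is the darkest at both ages, at 0.675 to 0.707 at 21 months, and the pairs lie near the line.

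How far each region lay from the other 6 was compared between the ages with 1 value per library, the r with the mean profile of the other regions over both ages. In the initial segment r was 0.941 ± 0.00487 at 21 months and 0.950 ± 0.00198 at 3 months (SD, n = 4 each), and all aged libraries lay below all young ones (exact permutation test, two-sided, p = 0.0286, the smallest that 4 against 4 libraries allow). After Benjamini-Hochberg adjustment over the 7 regions this was p = 0.1 in the exact permutation test, and no region passed. A single region at the smallest p cannot pass this adjustment, so the adjusted values do not decide whether a region moved. The vas deferens lay nearer to the other regions at 21 months (0.947 ± 0.00352 against 0.941 ± 0.00286), as did the caput (0.958 ± 0.00109 against 0.955 ± 0.00367), and the efferent ductules farther (0.927 ± 0.00104 against 0.930 ± 0.00303), each with an exact permutation p = 0.0571 (adjusted 0.1). Over region-specific genes only, the difference of the efferent ductules turned from -0.00346 to 0.00141. The testis (0.713 against 0.711), the corpus (0.954 against 0.956) and the cauda (0.959 against 0.963) had exact permutation p-values of 0.343, 0.371 and 0.514. Replicate 2 of the aged cauda had the lowest r of its group (0.944), and without replicates 2 of all groups the difference of the cauda, which was negative, turned to 0.00136. With the 6 libraries left out the initial segment difference was -0.00877 (exact permutation p = 0.0286, adjusted 0.2). The caput difference was then 0.00200 (exact permutation p = 0.0857), against 0.00376 with all libraries. That of the cauda was -0.00141 (exact permutation p = 0.3), against -0.00410. The vas deferens had 0.00577 and the efferent ductules -0.00418 (exact permutation p = 0.114 and 0.2). Spermatid transcripts were also lower in the aged initial segment. The list for the spermatid nucleus and flagellum summed to 135, 93.9, 78.6 and 94.7 CPM in its aged libraries and to 218, 312, 148 and 213 CPM in the young ones, without overlap, and every gene of the list had counts in each of these libraries except 1 gene in replicate 1 of the aged group. In 13 of these 20 genes the difference of the initial segment changed with age by edgeR (1.9% of all genes tested), and with the 6 libraries left out it was smaller at 21 months in 13 and larger in none, with a median log2 change of -2.32. Of the 21 pairs of regions, the testis and initial segment had the largest gap in r between the ages (0.675 against 0.694). The part of the spermatid transcripts in these values of r was not tested.

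The region with the next highest mean was counted for the region-specific genes of each region. Of the genes called in the aged testis, 28.5% had the efferent ductules next and 25.9% the cauda, and of those in the aged efferent ductules 26.3% had the initial segment and 24.4% the testis. Genes of the aged initial segment had the caput next in 32.6% (50.3% at 3 months) and the vas deferens in 26.0% (8.55% at 3 months), and of the caput genes 35.9% had the initial segment (29.5% at 3 months) and 13.8% the efferent ductules (33.3% at 3 months). The cauda came next for 37.4% of corpus genes (44.1% at 3 months) and 39.7% of vas deferens genes (46.8%). For cauda genes the vas deferens was next in 33.3% (22.4% at 3 months) and the corpus in 32.7% (39.5%). These shares were not tested between the ages. For 19681 genes with a mean of at least 1 CPM, the region of the highest mean was the same at both ages in 76.3%. This share was 95.7% for genes highest in the aged testis, 83.9% in the initial segment, 76.3% in the efferent ductules, 72.3% in the corpus, 65.2% in the vas deferens, 47.9% in the caput and 47.0% in the cauda. The genes called at both ages, which were chosen by their levels in these libraries, held 48.7% of the counts of the aged testis and 48.9% of the young one, 15.6% and 16.05% for the initial segment, 12.5% and 13.4% for the vas deferens, 9.81% and 10.3% for the caput, 9.82% and 9.54% for the corpus, 7.32% and 7.83% for the efferent ductules, and 5.77% and 5.03% for the cauda. By library the corpus held 7.83 to 12.9% at 21 months and 7.34 to 15.1% at 3 months. The highest were aged replicate 3 and young replicate 4, where mitochondrial genes took 10.8 and 14.1%. Replicate 2 of the young caput held 8.74% on the corpus genes, against 1.33 to 1.63% in the others. Replicate 4 of the aged vas deferens held 9.31%, replicate 2 of the aged cauda 7.12% and replicate 3 of the young cauda 3.76%. The part of mitochondrial genes was not tested. These shares are a description, and the choice of the genes bears on how close they are.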

How the data were processed

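Total RNA of 7 regions of the male tract was sequenced from mice of 3 and 21 months, with 4 libraries per region and age. The authors trimmed reads with cutadapt, aligned them to mm10 with HISAT2 and counted them on genes with HTSeq, and the deposited values are raw counts per gene. The libraries were made with the TruSeq Stranded Total RNA kit. Versions, the annotation release and the strand setting of the counting are not given in the sources used here, and the study's methods and the sample labels name different RNA extraction reagents. GENCODE release M21 (GRCm38) gave the gene names, types and positions.

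Counts were analysed with edgeR 4.0.16 in R 4.3.3, with TMM factors over all 56 libraries, after genes with a total under 10 counts were left out. For each age, a region was compared with the mean of the other 6 by the quasi-likelihood test. A gene counted as region-specific when the unadjusted p was under 0.05 and its regional mean CPM reached 4 times the average over the other 6. The change with age was the contrast of these differences in one fit of the 56 libraries, called at a Benjamini-Hochberg adjusted p under 0.05. Alternatives used DESeq2 1.42.0, limma 3.58.1 with trend on log2(CPM + 1), other normalizations, filters and comparisons, and libraries left out. The scripts were tested on simulated data. Intervals and floors cover counting error only, and p-values measure the spread between libraries.

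The regions, gene lists and genes were chosen with earlier results of these data known. Genes were named by a fixed rule: in each region the 3 protein-coding genes with the highest mean and the 2 with the largest ratio to the other regions (mean of at least 10 CPM), the 2 genes per direction with the largest change with age (mean of at least 5 CPM at one age), and from each list the 2 highest members and up to 3 that were not region-specific. Of the positional lists, up to 6 region-specific members were taken. Some genes that the rule names are not reported here. Other list members, and Gm15241, were named after their values were seen. Of 411 list genes, 409 matched a gene of the table. The 24 lists included markers of other cell types.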

Additional observations from a re-analysis of the deposited data

Results flagged for a closer look

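Of 134 groups of 4 libraries checked for 1 library far from the other 3, 15 held one, where chance gives about 1 in 20. In the testis at 21 months, replicate 1 had 3285 CPM of Pabpc1, against 3001 to 3031 CPM in the others. In the efferent ductules at 3 months, replicate 2 had 5.49 CPM of Scarna13. In the caput, replicate 3 had 21273 CPM of Gpx5 at 3 months and replicate 3 had 5718 CPM of Glul at 21 months, and replicate 2 at 3 months had 3438 CPM of Gm24270. In the corpus, replicate 4 had 2254 CPM of Serpina16 at 21 months, the lowest of its group, and replicate 2 had 4.32 CPM of Th at 3 months. In the cauda, replicate 2 at 21 months had 182 CPM of Gm5615, against 92.2 to 94.1 CPM in the others, and replicate 3 at 3 months had 822 CPM of Spp1 and 262 CPM of Mmp12. In the vas deferens, replicate 4 at 21 months had 10317 CPM of Akr1b7 (the lowest) and 79.8 CPM of Pax5 (the highest), and replicate 2 at 3 months had 22578 CPM of Akr1b7. The correlation with the other regions was lowest in replicate 2 of the aged cauda (0.944) and replicate 3 of the young cauda (0.957).

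The regional difference changed with age, by a test of the change itself, for 25 pairs of a named gene and a region. These are log2 changes, 21 against 3 months. In the testis they were 1.24 for Mirg and -1.93 for Dmrta1. In the efferent ductules they were 2.83 for Gm12896, 1.82 for Scarna13, -2.19 for Gm7457 and -2.03 for 2010016I18Rik. In the initial segment they were 3.93 for ENSMUSG00000092267, 3.78 for Gm20412, -2.80 for Lipf and -2.45 for Fcmr. In the caput they were 4.67 for Defb19, 3.05 for Pkd2l1, -5.97 for Gm24270 and -5.96 for ENSMUSG00000092267. In the corpus they were 2.32 for Th, 1.47 for Lzts1 and -0.58 for Nudt5. In the cauda they were 2.68 for BC023105, 2.15 for F830016B08Rik, -9.32 for Spp1 and -7.56 for Mmp12. In the vas deferens they were 5.63 for Fcer2a, 5.20 for Pax5, -2.32 for Hbb-bt and -1.97 for Hbb-bs. No technical or biological part in these was tested beyond the values given above.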

How the results depend on the processing

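For the named genes, 4908 of 4943 values of the difference from the other regions and 2244 of 2414 values of its change with age kept their direction and their side of the threshold. Counted over protein-coding genes only the numbers of region-specific genes were 4477 (testis), 1079 (efferent ductules), 422 (initial segment), 306 (caput), 434 (corpus), 338 (cauda) and 682 (vas deferens) at 21 months, 4484 (testis), 1036 (efferent ductules), 454 (initial segment), 311 (caput), 407 (corpus), 453 (cauda) and 513 (vas deferens) at 3 months and 4200 (testis), 846 (efferent ductules), 336 (initial segment), 224 (caput), 321 (corpus), 206 (cauda) and 413 (vas deferens) at both ages. With each of the other 6 regions as the comparison in turn the numbers of region-specific genes were 731 (efferent ductules), 433 (initial segment), 163 (caput), 234 (corpus), 161 (cauda) and 408 (vas deferens) at 21 months, 783 (efferent ductules), 294 (initial segment), 223 (caput), 222 (corpus), 201 (cauda) and 261 (vas deferens) at 3 months and 573 (efferent ductules), 203 (initial segment), 103 (caput), 145 (corpus), 81 (cauda) and 189 (vas deferens) at both ages. With the 4-fold limit on the fitted log scale the numbers of region-specific genes were 3005 (efferent ductules), 2329 (initial segment), 1534 (caput), 2002 (corpus), 2018 (cauda) and 2381 (vas deferens) at 21 months, 3299 (efferent ductules), 1783 (initial segment), 2251 (caput), 1914 (corpus), 2068 (cauda) and 1771 (vas deferens) at 3 months and 2365 (efferent ductules), 1320 (initial segment), 1109 (caput), 1458 (corpus), 1260 (cauda) and 1307 (vas deferens) at both ages. With edgeR's filterByExpr the numbers of region-specific genes were 692 (initial segment), 381 (caput), 600 (corpus), 398 (cauda) and 782 (vas deferens) at 21 months, 1283 (efferent ductules), 464 (caput), 585 (corpus), 446 (cauda) and 642 (vas deferens) at 3 months and 248 (cauda) at both ages. With no filter the numbers of region-specific genes were 2040 (initial segment) and 1138 (cauda) at 21 months and 1653 (caput) at 3 months. With the DESeq2 Wald test the numbers of region-specific genes were 476 (cauda) at 3 months. The number of genes whose difference changed with age also moved. With edgeR's filterByExpr it was 37 (testis). With the DESeq2 Wald test it was 121 (testis), 2858 (efferent ductules), 238 (corpus) and 2142 (cauda). With library size only it was 7 (testis), 3035 (efferent ductules), 440 (initial segment), 5 (corpus), 340 (cauda) and 1366 (vas deferens). Without the 6 libraries it was 359 (testis), 4473 (efferent ductules), 1732 (initial segment), 619 (corpus) and 146 (cauda). With limma it was 1228 (testis), 2697 (efferent ductules), 1588 (initial segment), 4203 (caput) and 318 (corpus). With TMM within each age it was 463 (initial segment). With DESeq2 size factors in edgeR it was 71 (corpus). Leaving out 1 library or all replicates of 1 number gave 979 to 3355 (caput), 113 to 931 (cauda), 4 to 85 (corpus), 217 to 1778 (efferent ductules), 116 to 929 (initial segment), 1 to 45 (testis) and 1010 to 3151 (vas deferens).

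Some log2 changes with age changed sign, and none of them passed the test before. They became with TMM within each age -0.032 for Pabpc1, -0.050 for Crisp1, -0.14 for Mlh3 and 0.14 for Spred1, with limma -0.17 for Gm15262, 0.31 for Foxj1, 0.15 for Tmem212, -0.80 for Rnase13, 0.058 for Npy, -0.66 for Akr1b7, 0.32 for Dnali1, 0.35 for Crisp4, 0.0068 for Ptgs2, -0.064 for Hoxd12, 0.043 for Hoxd13 and -0.40 for Hoxc11, without the 6 libraries 0.015 for Lcn8, 0.82 for Gpx5 in the caput, 0.35 for Serpina16, 0.40 for Ces5a, 0.0093 for Rec8, 0.12 for Dnali1, 0.29 for Gpx5 in the initial segment, 0.18 for Adam7 in the initial segment, 0.039 for Spred1, 0.63 for Adam7 in the caput, 0.056 for Crisp4, 0.25 for Ptgs2, 0.27 for Actg2, 0.0025 for Hoxd13 and 0.0021 for Hoxd11, with library size only 0.18 for Glul and 0.21 for Spred1, with the DESeq2 Wald test -0.039 for Rnase13, -0.0030 for Mlh3, 0.0031 for Rfx2, 0.042 for Dnali1, 0.12 for Spred1 and -0.095 for Hoxc11, with DESeq2 size factors in edgeR -0.0032 for Mlh3, 0.0053 for Rfx2, 0.028 for Dnali1 and 0.12 for Spred1 and with a TMM reference library outside the testis 0.0018 for Dnali1 and 0.12 for Spred1. With replicates or single libraries left out, the changes ranged over -1.24 to 0.16 for Adam7 in the caput, -0.46 to 0.59 for Akr1b7, -0.33 to 0.33 for Crisp1, -0.35 to 0.11 for Dnali1, -0.48 to 0.016 for Foxj1, -0.49 to 1.06 for Gm5615, -0.27 to 0.024 for Gstm6, -0.68 to 1.02 for Hoxc11, -0.42 to 0.65 for Lcn5, -0.32 to 0.099 for Ly6e, -0.030 to 0.077 for Mlh3, -0.18 to 0.039 for Rec8, -0.34 to 0.17 for Rfx2, -0.12 to 0.17 for Spred1, -0.019 to 0.36 for Trp63 and -0.32 to 0.13 for Wnt9b, and the log2 differences from the other regions at 21 months over -0.44 to 1.20 for Hbb-bs and -0.37 to 1.35 for Hbb-bt. The age difference in r with the other regions was 0.00141 in the efferent ductules over region-specific genes only, and -0.00775 to 0.00136 in the cauda with replicates left out. The limma test, the 6 libraries, TMM within each age, the other TMM reference and protein-coding genes were alternatives chosen after seeing the data, and the causes were not tested beyond the construction of each setting.

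The replicate numbers did not pair the libraries by the rule used here. All 4 same-numbered correlations of deviations were over 0.1 in 0 of 21 pairs of regions at 21 months and in 1 of 21 at 3 months, and 10 of 28 aged and 15 of 28 young libraries were closest to their own number. With the number as a replicate block, the changes with age numbered 34 (testis), 1283 (efferent ductules), 636 (initial segment), 2485 (caput), 34 (corpus), 648 (cauda) and 2696 (vas deferens), and no count of genes moved by over 1.5 times. Depth limits genes with few counts: a fold change against a region with no counts depends on the prior count.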
